A study of Mus musculus with 12 samples.

Results

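The 9 genes described here encode adhesion molecules of erythroblasts and were followed across selenium diet and maturation stage. They are the integrin subunit genes Itga4, Itga5, Itgb1 and Itga2b, the immunoglobulin-family ligand Icam4, the hyaluronan receptor Cd44, the scavenger receptor Cd36, the small surface glycoprotein Cd24a and the C-type lectin-like receptor Cd248. They were chosen by name as integrins and adhesion receptors of erythroblasts and of their contact with macrophages. All 9 had a feature of their own among the 30710 genes on the arrays, and all 9 passed the filter on dim features that left 20133 genes for testing.

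The samples were basophilic erythroblasts and proerythroblasts sorted by flow cytometry from the spleens of male mice, taken 3 days after phenylhydrazine. Phenylhydrazine destroys circulating red cells and so drives a burst of red cell production in the spleen, known as stress erythropoiesis. Proerythroblasts are the earliest recognisable red cell precursors and basophilic erythroblasts the stage that follows. For 3 months before phenylhydrazine the mice ate a diet deficient or adequate in selenium, which gave 4 groups of 3 arrays: basophilic erythroblasts on the deficient diet, basophilic erythroblasts on the adequate diet, proerythroblasts on the deficient diet and proerythroblasts on the adequate diet. All 4 groups came from phenylhydrazine-treated mice, so none shows the spleen at rest. Strain, age and the number of mice behind each sample are not given in the sources used here, so the p-values measure only the spread between these samples, which may be technical. The surface markers of the sort are not given either. Several of these 9 proteins are common staging markers, and whether the sort used any of them cannot be told.

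Red cell precursors mature in the marrow and spleen in erythroblastic islands, clusters around a central macrophage. Integrin α4β1 on the erythroblast binds VCAM1 on the macrophage, and ICAM4 on the erythroblast binds αV integrins of the macrophage. Integrins α4β1 and α5β1 also bind fibronectin in the surrounding matrix, and loss of such receptors during maturation accompanies release of the young red cell. CD44 and CD36 are widely used to follow maturation, because their amounts at the cell surface change with stage.

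Total RNA, 5 ng per sample, was labelled and hybridised to Affymetrix whole-transcript arrays. The deposited values are log2 expression values, and a difference of 1 on this scale is a 2-fold change. A gene was said to have risen or fallen when its adjusted p in limma, after Benjamini-Hochberg correction over all genes tested, was under 0.05. The number of arrays, 3 a group, limits the precision of every value. Levels are compared between groups for the same gene and never between genes, because probes differ in brightness. In sorted samples, fewer cells of a type and less RNA per cell cannot be told apart.

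Some features of the arrays bear on these genes. The description of replicate 3 of the deficient basophilic group names proerythroblasts, against its title and its cell type label, which say basophilic. It was kept as basophilic. Over the 9 genes it differed from replicate 1 of its group by at most 0.52, for Cd36, and by at most 0.18 for the others. Replicate 2 of both basophilic groups stood apart, with a median of the background features of 4.70 on the deficient and 4.19 on the adequate diet, against 3.63 to 3.80 on the other 4 basophilic arrays and 3.31 to 3.53 on the 6 proerythroblast arrays. The brightest background feature read 7.64 to 8.98 on deficient basophilic, 7.50 to 8.33 on adequate basophilic, 6.89 to 7.07 on deficient proerythroblast and 6.81 to 7.16 on adequate proerythroblast arrays. In every basophilic array Cd44, Itga5 and Cd248 lay under that brightest background feature, as did Cd248 in all 3 deficient proerythroblast arrays and Itga2b in all adequate arrays of both stages. All 9 genes were above the median background feature in all 12 arrays. Small differences among such dim values are the least reliable, and folds that rest on them may be understated.

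Genes known to mark the stages were measured beside the adhesion genes. The summed linear level of 13 markers of later erythroblasts was 52049 to 56050 in deficient and 52865 to 55240 in adequate basophilic erythroblasts. It was 32709 to 35301 in deficient and 14623 to 18457 in adequate proerythroblasts. Of these 13 genes, 9 rose and 1 fell in deficient against adequate proerythroblasts, where 1.27% of all genes tested rose and 2.76% fell. The summed level of the markers of earlier erythroblasts was 1045 to 1217 in deficient and 2468 to 2694 in adequate proerythroblasts. In basophilic erythroblasts it was 707 to 974 on the deficient and 709 to 820 on the adequate diet. Of the 8 earlier markers tested, 4 fell by diet in proerythroblasts and 4 did not pass. Many but not all stage markers thus moved together with the diet effect in proerythroblasts described next. The part of stage in the adhesion gene differences was not tested.

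The proximal promoters of 4 of the genes are shown as examples. All 4 genes changed with stage on the adequate diet, and of them only Itga5 passed for diet. They were also picked because their sequences differ in the motifs searched, so that difference is not a result. The sequences are RefSeq's on build GRCm38.p6, each from 250 bases before to 50 bases after the annotated start and read on the strand of the gene. Capitals mark GATAA, a core of the sites of GATA factors such as GATA1, and CCNCNCCC, a core of the sites of Krüppel-like factors such as KLF1, each searched on both strands. Positions count from the start, with -1 the base before it. A match on the other strand is read as the reverse complement, such as TTATC for GATAA.
Itga5 (chr15:103366742-103367041, minus strand): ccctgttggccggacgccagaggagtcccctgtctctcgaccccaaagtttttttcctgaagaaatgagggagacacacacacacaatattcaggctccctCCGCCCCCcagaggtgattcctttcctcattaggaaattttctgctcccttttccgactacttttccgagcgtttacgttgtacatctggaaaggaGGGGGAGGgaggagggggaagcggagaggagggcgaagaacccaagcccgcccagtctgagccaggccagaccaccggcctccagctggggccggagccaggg
Cd44 (chr2:102901616-102901915, minus strand): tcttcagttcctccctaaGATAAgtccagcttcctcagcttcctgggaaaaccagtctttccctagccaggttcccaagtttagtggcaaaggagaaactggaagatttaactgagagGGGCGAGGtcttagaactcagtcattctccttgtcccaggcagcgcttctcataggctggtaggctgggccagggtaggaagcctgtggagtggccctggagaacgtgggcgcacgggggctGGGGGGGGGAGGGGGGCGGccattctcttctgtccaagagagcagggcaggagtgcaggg
Icam4 (chr9:21029182-21029481, plus strand): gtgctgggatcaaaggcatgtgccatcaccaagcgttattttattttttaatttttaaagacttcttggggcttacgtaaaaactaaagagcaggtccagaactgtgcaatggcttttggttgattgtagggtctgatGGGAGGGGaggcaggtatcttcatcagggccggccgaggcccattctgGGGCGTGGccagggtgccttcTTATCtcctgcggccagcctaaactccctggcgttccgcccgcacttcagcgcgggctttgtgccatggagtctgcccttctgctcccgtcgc
Cd36 (chr5:17835847-17836146, minus strand): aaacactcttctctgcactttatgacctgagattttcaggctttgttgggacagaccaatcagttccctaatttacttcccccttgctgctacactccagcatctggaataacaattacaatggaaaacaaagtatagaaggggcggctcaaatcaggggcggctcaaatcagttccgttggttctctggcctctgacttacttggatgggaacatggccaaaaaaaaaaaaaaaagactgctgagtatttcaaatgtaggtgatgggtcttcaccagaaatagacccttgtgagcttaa
GATAA occurred in the windows of Cd44, at -232 from the start, and of Icam4, at -43 on the other strand. CCNCNCCC occurred at 2 places in Itga5, at -149 and -53. In Icam4 it occurred at -112 and -64. In Cd44 it matched at 6 overlapping or separate positions, most within a run of G around the start. The Cd36 window held neither motif. Of the 9 genes, 7 matched an entry of the promoter table, and Cd24a and Cd248 are named only. The windows of Itga4, Itgb1 and Itga2b, not shown, held no GATAA and held 5, 1 and 2 matches of CCNCNCCC. Among the 7 windows GATAA thus occurred only in Cd44 and Icam4, and CCNCNCCC in all but Cd36. Of the 32851 promoters of the table, 25.4% held GATAA and 49.5% held CCNCNCCC. A match describes letters in the window and is not a measured site.

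Selenium deficiency changed 4 of the 9 genes in proerythroblasts, against 4.02% of all genes tested. Itga5 and Cd248 fell, against 2.76% of all genes, and Itga2b and Cd24a rose, against 1.27%. The other 5 did not pass the test, although Cd36 and Cd44 also read higher on all 3 deficient arrays than on any adequate one. The replicate numbers were taken to pair the samples within each stage, from correlations in these data and not from the labels. With the number as a block within each stage 6 of the 9 passed, among 2234 of all genes against 810 without the block. Icam4 (adjusted p = 0.0164) and Cd36 (0.0274) were then added as higher. With 1 array left out, 2 to 4 of the 9 passed, among 314 to 1806 genes. With median centring 2 of the 9 passed, among 879 genes. Itga5 and Cd248 passed in each of these fits, while Itga2b and Cd24a did not. Without overlap between the 2 groups of arrays were 6 of the 9 genes, 4 higher and 2 lower, against 31.1% of all genes. The median log2 difference of the 9 genes was 0.07, beside 0.02 over all genes tested.

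In basophilic erythroblasts none of the 9 genes passed the limma test for diet, against 0.0199% of all genes tested, which is 4 genes. At an unadjusted p under 0.05 there were 2 of the 9, Itga2b and Cd44, and 1305 of all genes. Itga2b alone among the 9 had deficient arrays clear of the adequate ones, against 8.04% of all genes. With the replicate 2 arrays of basophilic erythroblasts left out, Itga2b and Cd44 rose and 420 genes passed in all, as did these 2 with only the deficient replicate 2 left out, among 289 genes. With the block within each stage Itga2b passed, among 295 genes. The diet effect differed between stages, by the interaction test, for Itga5 and Cd248, 2 of the 9 genes, against 0.303% of all genes tested, which is 61 genes. With the block within each stage 3 of the 9 passed, Cd36 added, among 589 genes, and with 1 array left out 0 to 2 of the 9 passed, among 12 to 282 genes.

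Between the stages, 5 of the 9 genes changed on the deficient diet, against 56% of all genes tested, so the share of the 9 was close to that of genes in general. On the adequate diet 7 of the 9 changed, against 54.2% of all genes. Cd36 and Itga2b rose and Cd44 and Itga5 fell on both diets, where 31.1% of all genes rose and 24.9% fell on the deficient diet, and 28.7% rose and 25.5% fell on the adequate diet. The arrays of the 2 stages did not overlap for 7 of the 9 on the deficient and 8 of the 9 on the adequate diet, against 66.5% and 74% of all genes. Itgb1 fell with stage on the deficient diet, while Icam4 and Cd24a rose and Cd248 fell on the adequate diet. The 2 stage effects and the 2 diet effects share arrays, so they are not independent of each other. With each array centred on its median, the median stage difference of all genes moved to -0.15 on the deficient and -0.11 on the adequate diet, against 0.08 and 0.12 as deposited. The stage calls then split into 2969 higher and 6284 lower on the deficient diet and 2040 higher and 6173 lower on the adequate diet, against 6261 and 5014, and 5769 and 5143, as deposited.

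**Figure D1:**
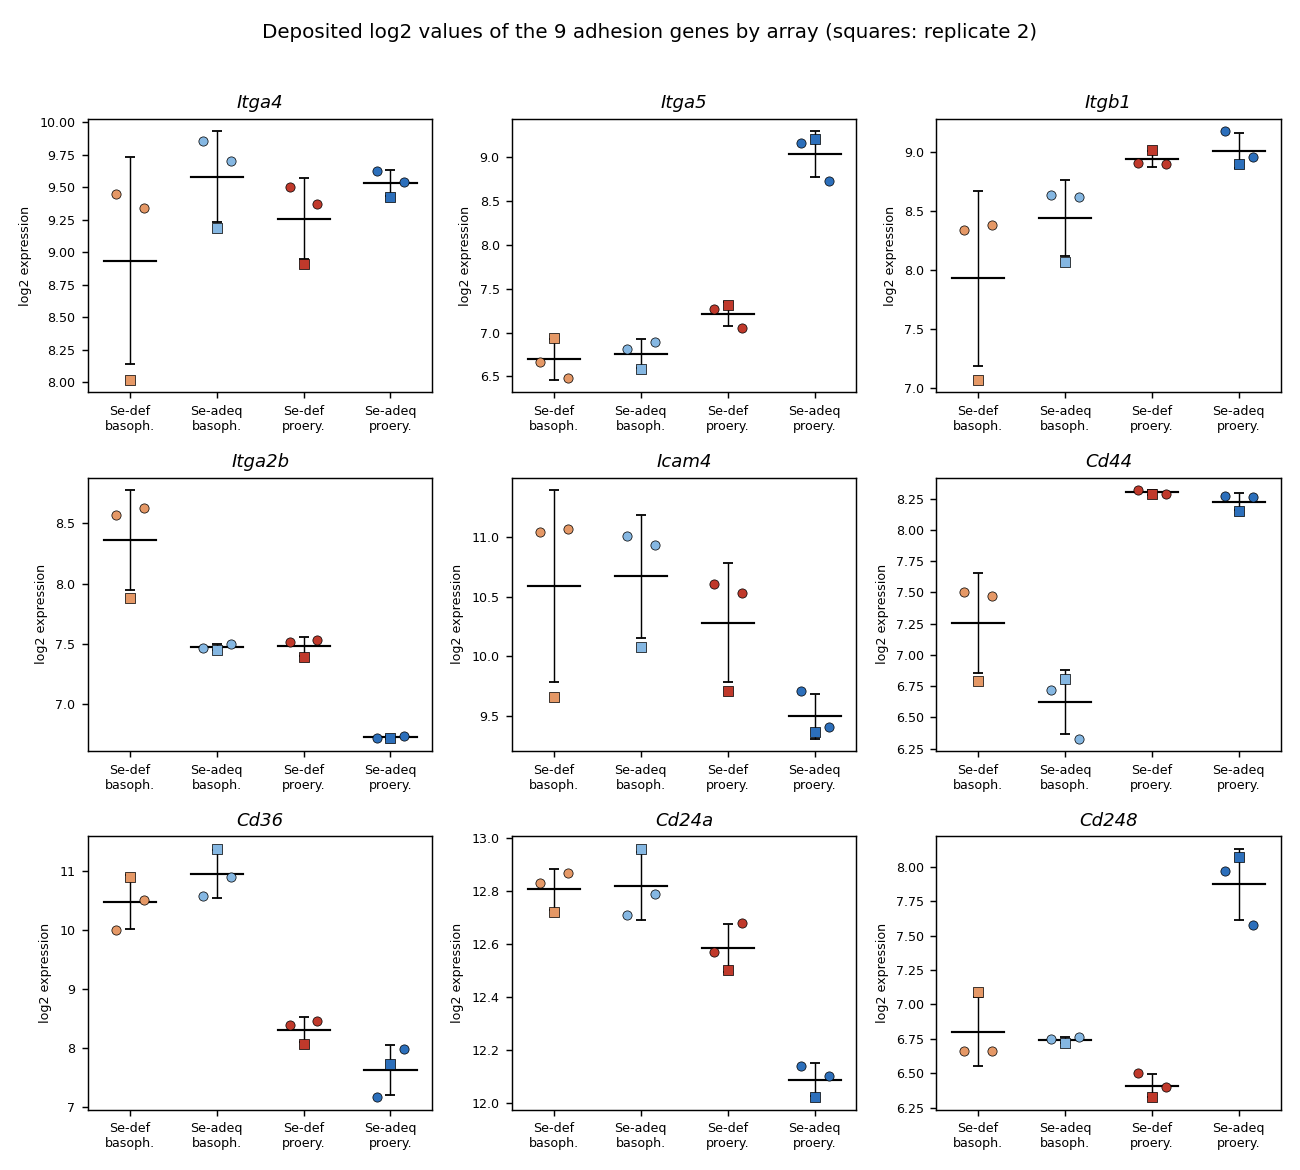
Deposited log2 values of the 9 genes on the vertical axes, by diet and stage group, with 1 point per array, the group mean as a bar and the SD as an error bar. Squares mark replicate 2. Itga5 and Cd248 were highest in adequate proerythroblasts, and Cd36 was highest in both basophilic groups.

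**Figure D2:**
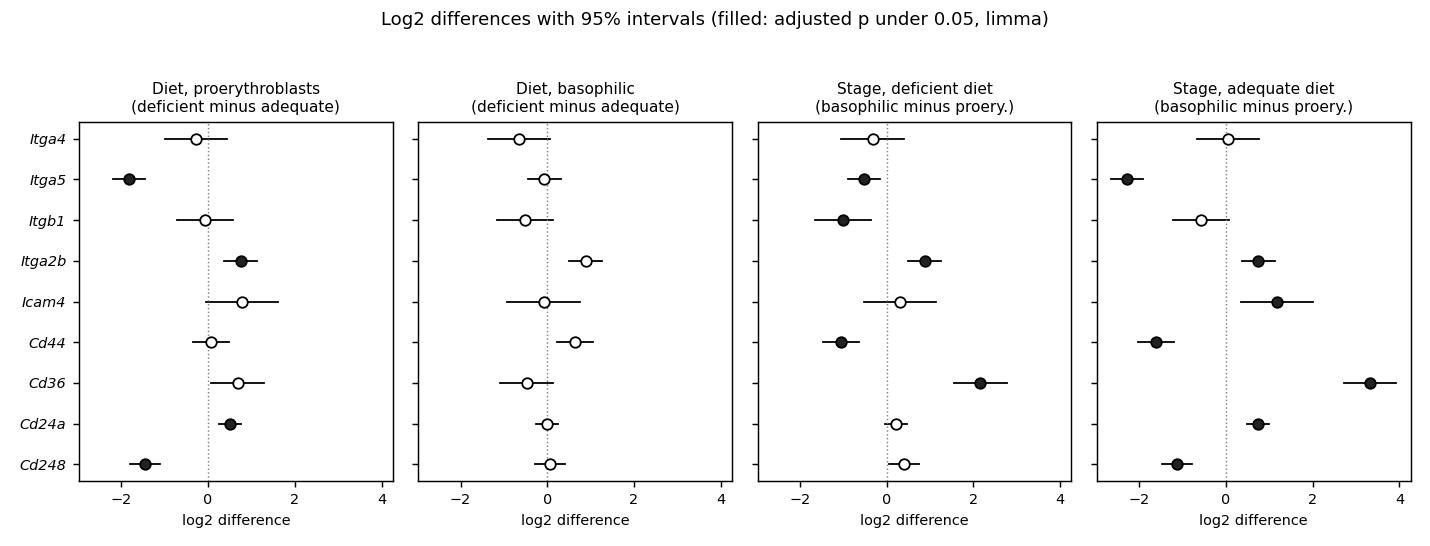
Log2 differences of the 9 genes with 95% confidence intervals from limma, in 1 panel each for the diet effect in proerythroblasts, the diet effect in basophilic erythroblasts, the stage effect on the deficient diet and the stage effect on the adequate diet. Filled points passed the test after adjustment over all genes. The diet panel of basophilic erythroblasts holds no filled point.

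Itga5, the α5 subunit of the fibronectin receptor α5β1, gave the largest diet difference of the 9 genes. It read 6.66, 6.94 and 6.48 in deficient and 6.81, 6.58 and 6.89 in adequate basophilic erythroblasts. In proerythroblasts it read 7.27, 7.31 and 7.05 on the deficient diet, against 9.16, 9.21 and 8.73 on the adequate diet. The adequate proerythroblasts stood above every other array, the deficient proerythroblasts came next, and both basophilic groups overlapped at the bottom, under the brightest background feature. Itga5 was lower by 1.82 on the log2 scale in deficient than in adequate proerythroblasts, a 3.54-fold difference (SE 0.17, limma adjusted p = 0.000255, 3 arrays a group). In basophilic erythroblasts its diet difference was -0.07 (adjusted p = 0.961), with a 95% interval of -0.44 to 0.30. The interaction was 1.76 (SE 0.24, adjusted p = 0.0158). The proerythroblast difference passed in all alternatives and with any array left out, at adjusted p up to 0.00346.

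Itga5 also fell with stage on both diets. It was 4.83-fold lower in basophilic erythroblasts than in proerythroblasts on the adequate diet, a log2 difference of -2.27 (SE 0.17, adjusted p = 2.91e-06). On the deficient diet the difference was -0.52 (adjusted p = 0.0259). This smaller stage call was lost with quantile normalization (adjusted p = 0.0936), with only the arrays of the contrast (0.071) and on leaving out deficient proerythroblast replicate 1 or 2 or deficient basophilic replicate 1 or 3, at adjusted p up to 0.0724. The interaction call was lost without deficient proerythroblast replicate 3 (adjusted p = 0.0764), adequate proerythroblast replicate 1 (0.069) or 2 (0.0613), deficient basophilic replicate 1 (0.0552) or adequate basophilic replicate 1 (0.0548). Its value ranged from 1.63 to 1.91 over the 12 fits that each left out an array.

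Itga4 encodes the α4 subunit, which pairs with β1 to bind VCAM1 on the macrophage and fibronectin. It read 9.45, 8.02 and 9.34 in deficient and 9.86, 9.19 and 9.70 in adequate basophilic erythroblasts. In proerythroblasts it read 9.50, 8.91 and 9.37 on the deficient diet and 9.63, 9.43 and 9.54 on the adequate diet. All 4 groups overlapped with their neighbours in the order of means, and replicate 2 was the lowest array of each of the 4 groups. The diet difference was -0.27 in proerythroblasts and -0.65 in basophilic erythroblasts (SE 0.33 each, adjusted p = 0.952 and 0.828). The stage difference was -0.32 on the deficient and 0.05 on the adequate diet (adjusted p = 0.404 and 0.9). The interval of the adequate-diet stage difference, -0.67 to 0.77, leaves room for a change of either sign.

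Itgb1, the β1 subunit shared by α4β1 and α5β1, read 8.34, 7.07 and 8.38 in deficient and 8.64, 8.07 and 8.62 in adequate basophilic erythroblasts. It read 8.91, 9.02 and 8.90 in deficient and 9.18, 8.90 and 8.96 in adequate proerythroblasts. Every basophilic array was below every proerythroblast array, while the 2 diets overlapped at both stages. Itgb1 was 2.02-fold lower in basophilic erythroblasts than in proerythroblasts on the deficient diet (log2 difference -1.01, SE 0.30, adjusted p = 0.018). On the adequate diet the difference was -0.57 (adjusted p = 0.116), and without both basophilic replicates 2 it was -0.38 and passed (adjusted p = 0.00586). The deficient-diet call was lost without deficient proerythroblast replicate 3 (adjusted p = 0.051), with quantile normalization (0.057) and with only the arrays of the contrast (0.0662). The diet differences were -0.07 in proerythroblasts and -0.51 in basophilic erythroblasts (adjusted p = 0.998 and 0.918). The α4 and β1 genes thus gave no diet call at either stage, beside the call for α5 in proerythroblasts.

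Itga2b encodes the αIIb subunit (CD41), the fibrinogen receptor subunit of platelets, which early haematopoietic progenitors also carry. It read 8.57, 7.88 and 8.63 in deficient and 7.47, 7.45 and 7.50 in adequate basophilic erythroblasts. It read 7.52, 7.39 and 7.53 in deficient and 6.72, 6.72 and 6.74 in adequate proerythroblasts. The deficient arrays lay above the adequate arrays at both stages without overlap, and the basophilic arrays lay above the proerythroblast arrays of the same diet. Adequate basophilic and deficient proerythroblast arrays, the middle of the order, overlapped. Itga2b rose by diet in proerythroblasts, with a log2 difference of 0.75 or 1.69-fold (SE 0.17, adjusted p = 0.0325). In basophilic erythroblasts the difference was of like size, 0.89, with adjusted p = 0.142. The interaction was 0.13 (adjusted p = 0.999, 95% interval -0.40 to 0.67).

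The basophilic diet difference of Itga2b passed as well when the replicate number was a block within each stage (adjusted p = 0.0299). It also passed without both basophilic replicates 2, where it was 1.115 (adjusted p = 0.000747). The proerythroblast call was lost on leaving out any 1 of the 6 proerythroblast arrays, at adjusted p up to 0.137, or adequate basophilic replicate 1 (0.0515) or 3 (0.0572), and with median centring (0.1). By stage Itga2b rose by 0.88 on the deficient and 0.75 on the adequate diet (adjusted p = 0.00425 and 0.00592). The adequate-diet stage call was lost with median centring (adjusted p = 0.0695).

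Megakaryocytes and platelets are the other cells rich in Itga2b. Of 9 of their markers tested, 0 rose and 0 fell by diet at either stage in limma. Leaving out both basophilic replicates 2, 1 of them rose by diet in proerythroblasts. The summed linear level of all 15 such markers on the arrays was 1081 to 1370 in deficient and 1137 to 1215 in adequate basophilic erythroblasts. It was 810 to 964 in deficient and 937 to 986 in adequate proerythroblasts. Itgb3, the β3 partner of αIIb, read 5.72 to 5.88 in deficient and 5.55 to 5.82 in adequate proerythroblasts. Its diet difference there was 0.13 (adjusted p = 0.871). The platelet chemokine gene Pf4 differed by -0.19 (adjusted p = 0.851) and Gp5, of the von Willebrand factor receptor, by -0.69 (adjusted p = 0.159). None of these 3 passed the test, and Itgb3 lay under the brightest background feature on every proerythroblast array. The part of such cells in the diet difference of Itga2b was not tested. With stage, 5 of the 9 rose on the deficient diet, and 3 rose and 1 fell on the adequate diet. Of all genes tested, 31.1% rose on the deficient and 28.7% on the adequate diet. With quantile normalization and with median centring, 3 of the 9 rose on the deficient diet, and 2 rose and 1 fell on the adequate diet. Without both basophilic replicates 2, 6 rose on each diet, and 1 fell on the adequate diet. The part of such cells in the stage difference of Itga2b was not tested.

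**Figure D3:**
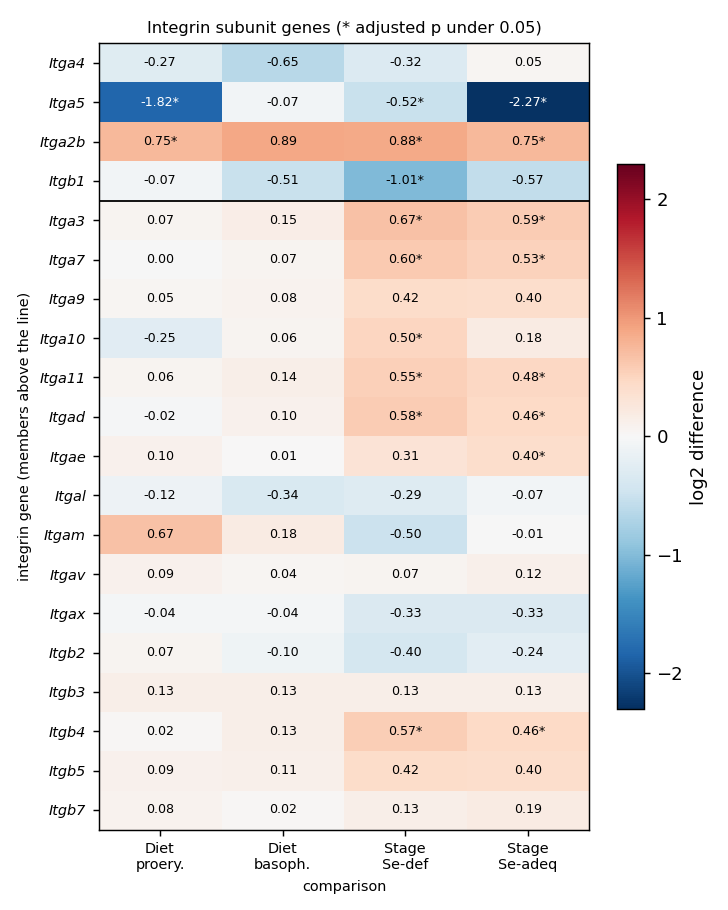
Log2 differences of the 4 integrin members, above the line, and of the 16 other integrin subunit genes tested, below it, for the diet effect at each stage and the stage effect on each diet. Colour and number give the difference, and an asterisk marks adjusted p under 0.05. No integrin below the line passed for diet, while Itga5 and Itga2b did in proerythroblasts.

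Beyond the 4 members, 16 of 21 other integrin subunit genes on the arrays passed the filter. None of the 16 passed limma for diet at either stage. In the fit without the replicate 2 basophilic arrays, 1 fell by diet in proerythroblasts. With stage, 6 rose and 0 fell on each diet, led by Itga3, a laminin receptor subunit (0.67 on the deficient and 0.59 on the adequate diet), and Itga11, a collagen receptor subunit (0.55 and 0.48). On the adequate diet both calls were lost with quantile normalization and with median centring, at adjusted p up to 0.117 for Itga3 and 0.171 for Itga11, and in 3 and 5 of the 12 fits that left out an array. On the deficient diet both were lost with only the arrays of the contrast (adjusted p = 0.0658 and 0.0715), and that of Itga11 also with quantile normalization and without deficient proerythroblast replicate 3. Of the 16, 4 rose on the deficient and 1 on the adequate diet with quantile normalization, and 5 and 0 with median centring. The median stage difference of the 16 was 0.36 on the deficient and 0.29 on the adequate diet, beside 0.08 and 0.12 over all genes. These genes were dim. Among all genes with a mean under 7 on the log2 scale, 44.6% rose with stage on the deficient and 38% on the adequate diet, as the background features rose too. The part of that background in the stage differences was not tested.

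ICAM4, the Landsteiner-Wiener blood group protein, is the erythroblast ligand of αV integrins on island macrophages. Icam4 read 11.04, 9.66 and 11.07 in deficient and 11.01, 10.08 and 10.93 in adequate basophilic erythroblasts. It read 10.61, 9.71 and 10.53 in deficient and 9.71, 9.37 and 9.41 in adequate proerythroblasts. Replicate 2 was the lowest array in each of the 4 groups, by over 1 log2 unit in deficient basophilic erythroblasts. Both basophilic groups and the deficient proerythroblasts overlapped. Adequate proerythroblasts had the lowest mean, but their highest array equalled the lowest deficient proerythroblast array and lay above deficient basophilic replicate 2. The diet difference in proerythroblasts was 0.79 (SE 0.38, adjusted p = 0.405). With the replicate number as a block within each stage the same difference passed (adjusted p = 0.0164), as it did without both basophilic replicates 2 (adjusted p = 0.0345). In basophilic erythroblasts the diet difference was -0.08 (adjusted p = 0.981).

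With stage Icam4 rose on the adequate diet, by 1.18 or 2.26-fold (SE 0.38, adjusted p = 0.0258). That call was lost with median centring (adjusted p = 0.103) and without adequate proerythroblast replicate 2 or 3 or adequate basophilic replicate 1 or 3, at adjusted p up to 0.0735. On the deficient diet the stage difference was 0.31 (adjusted p = 0.497). With the replicate 2 arrays of basophilic erythroblasts left out, it was 0.77 and passed (adjusted p = 0.0204). The interaction for Icam4 was -0.87 (SE 0.54, adjusted p = 0.784), so a difference between the diets in the stage effect was not shown.

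CD44, the receptor for hyaluronan, is lost steadily from the surface as erythroblasts mature and is used with cell size to separate stages. Cd44 read 7.50, 6.79 and 7.47 in deficient and 6.72, 6.81 and 6.33 in adequate basophilic erythroblasts. It read 8.32, 8.29 and 8.29 in deficient and 8.27, 8.15 and 8.26 in adequate proerythroblasts. Every proerythroblast array was above every basophilic array. Cd44 was 2.07-fold lower in basophilic erythroblasts on the deficient diet (log2 difference -1.05, SE 0.19, adjusted p = 0.00276). It was 3.05-fold lower on the adequate diet (-1.61, adjusted p = 6.21e-05). Both calls held in all alternatives and with any array left out.

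In proerythroblasts the 2 diets differed by 0.07 in Cd44 (adjusted p = 0.998, 95% interval -0.34 to 0.49). In basophilic erythroblasts replicates 1 and 3 of the deficient group stood above all adequate arrays, while deficient replicate 2 lay among them. The diet difference there was 0.63 (adjusted p = 0.409). Leaving out both basophilic replicates 2, it was 0.96 and passed (adjusted p = 0.00566), and the interaction passed too, at 0.89 (adjusted p = 0.0224), against 0.56 with all arrays (adjusted p = 0.592). Granulocytes also carry CD44. The summed linear level of 18 neutrophil markers was 1565 to 1909 in deficient and 1286 to 1546 in adequate basophilic erythroblasts. In proerythroblasts it was 2925 to 6135 on the deficient and 2088 to 6690 on the adequate diet. Of these 18 markers, 0 rose and 8 fell with stage on the deficient diet, and 1 rose and 9 fell on the adequate diet. Of all genes tested, 24.9% fell on the deficient and 25.5% on the adequate diet. S100a8 fell by 3.42 on the log2 scale on the adequate diet. The part of such cells in the stage difference of Cd44 was not tested.

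CD36 is a receptor for thrombospondin and long-chain fatty acids that appears on erythroblasts early in maturation. Cd36 read 9.99, 10.90 and 10.51 in deficient and 10.57, 11.37 and 10.89 in adequate basophilic erythroblasts. It read 8.39, 8.07 and 8.46 in deficient and 7.16, 7.73 and 7.98 in adequate proerythroblasts. All basophilic arrays were above all proerythroblast arrays, by more than the spread within any group. Cd36 rose 4.47-fold with stage on the deficient diet (log2 difference 2.16, SE 0.28, adjusted p = 0.000446). On the adequate diet it rose 9.99-fold (3.32, SE 0.28, adjusted p = 6.3e-06), the largest stage difference of the 9 genes. Both calls held in all alternatives.

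By diet, every deficient proerythroblast array was above every adequate one for Cd36, with a difference of 0.68 (adjusted p = 0.267). In basophilic erythroblasts the difference was -0.48 (adjusted p = 0.924) and the groups overlapped. The interaction was -1.16 (SE 0.39, adjusted p = 0.297). With the replicate number as a block within each stage, the proerythroblast difference (adjusted p = 0.0274) and the interaction (adjusted p = 0.0372) passed. In that fit the differences themselves were the same.

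By diet in proerythroblasts, 1.27% of all genes tested rose and 2.76% fell. Of 20 tested genes of fatty acid handling, 0 rose and 3 fell there. They were Acsl6, a long-chain acyl-CoA synthetase (-0.79), Acadm, the medium-chain acyl-CoA dehydrogenase of β-oxidation (-0.59), and Plin2, a lipid droplet coat protein (-0.85). All 3 calls were lost without deficient proerythroblast replicate 2 or 3 or adequate proerythroblast replicate 1 or 2, and that of Acadm also without adequate replicate 3, at adjusted p up to 0.0675 for Acsl6, 0.092 for Acadm and 0.107 for Plin2. Of all genes tested, 56% changed with stage on the deficient and 54.2% on the adequate diet. Of the 20, 4 rose and 7 fell with stage on the deficient diet, and 3 rose and 9 fell on the adequate diet. Among those that fell was Fabp5, a cytosolic fatty acid carrier (-1.65 and -1.55). Median differences with stage were -0.30 on the deficient and -0.40 on the adequate diet. Without both basophilic replicates 2 the deficient-diet median was 0.08 and that on the adequate diet -0.40. With quantile normalization, 4 rose and 4 fell on the deficient diet, where the median was 0.004, and 0 rose and 6 fell on the adequate diet. None of the 20 passed for diet in basophilic erythroblasts. In the fit without the replicate 2 basophilic arrays, 6 fell by diet in proerythroblasts and 1 rose by diet in basophilic erythroblasts.

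CD24 is a small heavily glycosylated anchored protein of erythroblasts and many other blood cells, and Cd24a is its mouse gene. It read 12.83, 12.72 and 12.87 in deficient and 12.71, 12.96 and 12.79 in adequate basophilic erythroblasts. It read 12.57, 12.50 and 12.68 in deficient and 12.14, 12.02 and 12.10 in adequate proerythroblasts. Adequate proerythroblasts were lowest, deficient proerythroblasts stood above them without overlap, and the 2 basophilic groups overlapped at the top. Cd24a rose by 0.50 on the deficient diet in proerythroblasts, or 1.41-fold (SE 0.12, adjusted p = 0.0344). This call was lost on leaving out any 1 of the 6 proerythroblast arrays, at adjusted p up to 0.176, deficient basophilic replicate 1 (0.0534) or adequate basophilic replicate 3 (0.0656), and with median centring (0.0529). In basophilic erythroblasts the diet difference was -0.01 (adjusted p = 0.991, 95% interval -0.27 to 0.24).

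With stage Cd24a rose on the adequate diet by 0.73, or 1.66-fold (adjusted p = 5e-04). On the deficient diet the difference was 0.22 (adjusted p = 0.115). It was 0.63 with quantile normalization and passed (adjusted p = 0.00272), and 0.27 without both basophilic replicates 2 (adjusted p = 0.0193). The interaction was -0.51 (SE 0.16, adjusted p = 0.281).

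CD248, or endosialin, is best known on stromal fibroblasts and pericytes rather than on red cells. Cd248 read 6.66, 7.09 and 6.66 in deficient and 6.75, 6.72 and 6.76 in adequate basophilic erythroblasts. It read 6.50, 6.33 and 6.40 in deficient and 7.97, 8.07 and 7.58 in adequate proerythroblasts. Only in the adequate proerythroblasts did it exceed the brightest background feature, and those 3 arrays stood above all other 9. Cd248 was 2.76-fold lower in deficient than in adequate proerythroblasts (log2 difference -1.46, SE 0.16, adjusted p = 0.000847). The call held in all alternatives and with any array left out, at adjusted p up to 0.00867.

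In basophilic erythroblasts the diet difference of Cd248 was 0.06 (adjusted p = 0.962). The interaction was 1.52 (SE 0.22, adjusted p = 0.028), and this call was lost with quantile normalization (adjusted p = 0.0853) and in 9 of the 12 fits that left out an array, at adjusted p up to 0.119. With stage Cd248 fell 2.19-fold on the adequate diet (-1.13, adjusted p = 0.000211), and on the deficient diet it differed by 0.39 (adjusted p = 0.0519). That higher level passed with the replicate block over all arrays (adjusted p = 0.0434), with trended and robust variance (0.0481) and without adequate proerythroblast replicate 3 (0.0401), deficient basophilic replicate 1 (0.0453) or deficient basophilic replicate 3 (0.041). Of 9 tested markers of stroma and endothelium, 0 rose and 0 fell by diet in proerythroblasts. The summed linear level of all 14 such markers on the arrays was 690 to 714 in deficient and 639 to 709 in adequate proerythroblasts. In basophilic erythroblasts it was 897 to 1255 on the deficient and 875 to 1020 on the adequate diet. Only 9 of the 14 passed the filter on dim features, and the part of such cells in the Cd248 differences was not tested.

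Across the 12 arrays the 9 genes followed a few shapes. Itga5 and Cd248, both highest in adequate proerythroblasts, correlated at r = 0.877. Itga5 ran opposite to Cd24a (r = -0.977), and Cd44 ran opposite to Cd36 (r = -0.921). These are descriptions over 12 arrays that share 4 group means, not tests.

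The 3 genes most like each member over the 12 arrays were found by Pearson r among all named genes tested. For Itga5 they were Eng (r = 0.997), Scml2 (0.992) and Rreb1. Eng, the TGF-β co-receptor endoglin, averaged 6.66 in deficient and 6.70 in adequate basophilic erythroblasts and 7.13 in deficient and 8.84 in adequate proerythroblasts. For Cd36 they were Rsad2 (0.994), the interferon-induced viperin, Mkrn1 (0.991) and Ctsb, the lysosomal protease cathepsin B (0.989). Rsad2 averaged 11.94 in deficient and 12.29 in adequate basophilic erythroblasts and 9.76 in deficient and 8.92 in adequate proerythroblasts. For Cd24a the closest was Slc25a37, mitoferrin, the mitochondrial iron importer (0.976), followed by Rnf11 and Kdm7a.

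For Cd248 the closest were Mccc2 (0.986), Cyb561d2 and Plxdc1. For Itga2b they were Adamtsl5 (0.981), Nqo1 and Rph3al. Nqo1, a quinone reductase, averaged 8.15 in deficient and 7.17 in adequate basophilic erythroblasts, and 7.40 in deficient and 6.27 in adequate proerythroblasts. Like Itga2b, it was higher on the deficient diet at both stages. Cd44 was closest to Stam2, Riok2 and Ppa1, and Icam4 to Tom1l1 (0.977), Cgrrf1 and Mindy2. Itgb1 was closest to Cpsf4 (0.992), Cnot2 and Thrap3, and Itga4 to Ptpra (0.975), Arid4a and Kntc1.

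Around the members stand the genes that activate integrins and tie them to actin. Of 24 tested, 4 rose, 10 fell and 10 did not pass with stage on each diet, with a median of -0.46 on the deficient and -0.10 on the adequate diet. The share that changed was close to that of all genes tested, 56% on the deficient and 54.2% on the adequate diet. The adequate-diet median was 0.07 without both basophilic replicates 2 and 0.12 with quantile normalization, where 2 rose and 8 fell. On the deficient diet 2 rose and 6 fell with quantile normalization. Apbb1ip, the Rap1 effector RIAM that brings talin to integrins, fell, with log2 differences of -1.84 on the deficient and -2.34 on the adequate diet (adjusted p = 0.000384 and 1.72e-05). Parvg, a parvin of blood cells, fell likewise (-0.95 and -1.73), as did Ptk2b, an adhesion kinase (-1.03 and -1.32). Vcl, or vinculin, fell by 1.39 on the deficient diet. Rap1a, a small GTPase that switches integrins on, rose by 0.45 on the deficient and by 0.88 on the adequate diet. By diet in proerythroblasts, Rap1a rose by 0.64 (adjusted p = 0.0198) and Parvg fell by 0.91 (adjusted p = 0.0214), and the other 22 did not pass. Of all genes tested, 1.27% rose and 2.76% fell there. The Rap1a call was lost with trended and robust variance (adjusted p = 0.0551) and without any 1 of the proerythroblast arrays other than adequate replicate 3, at adjusted p up to 0.114. The Parvg call was lost without deficient proerythroblast replicate 2 or 3 or adequate proerythroblast replicate 1 or 3, at adjusted p up to 0.0977. With the replicate 2 arrays of basophilic erythroblasts left out, 1 rose and 5 fell there. None passed for diet in basophilic erythroblasts, and 1 fell without those arrays.

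**Figure D4:**
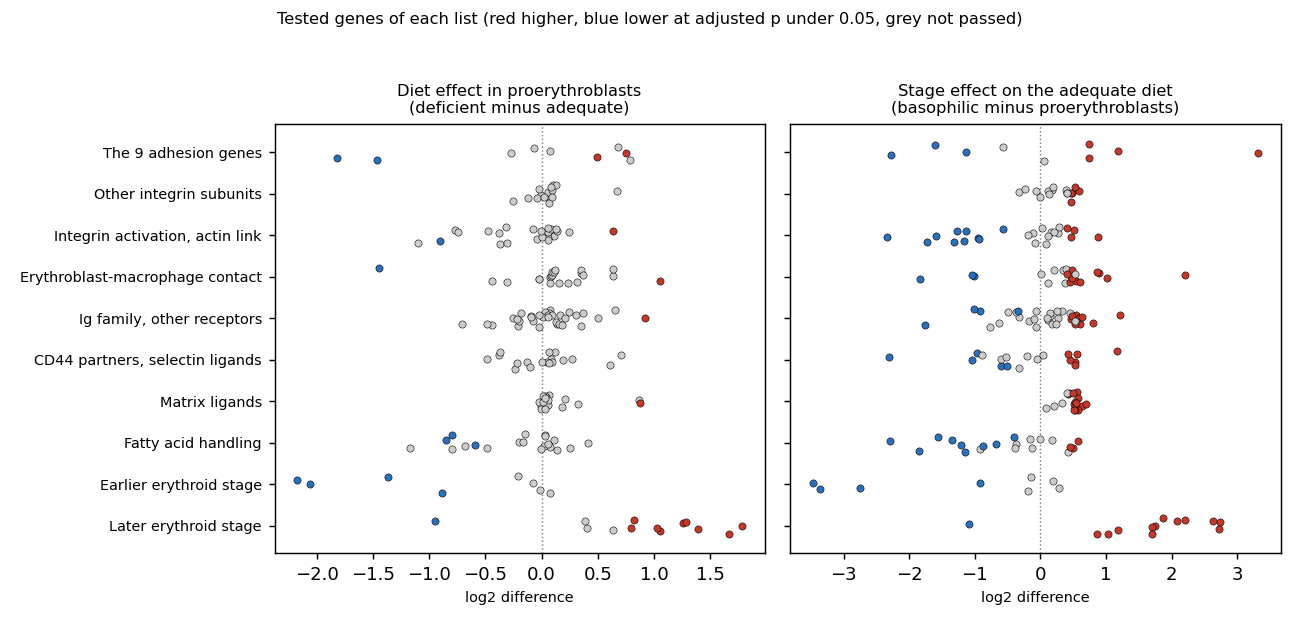
Log2 differences of the tested genes in each list, 1 point per gene, for the diet effect in proerythroblasts (left) and the stage effect on the adequate diet (right). Red points were higher and blue points lower at adjusted p under 0.05, and grey points did not pass. In the left panel 4 of 8 markers of earlier erythroblasts were lower and 9 of 13 markers of later erythroblasts higher, and in the right panel 4 of 8 and 12 of 13. In each panel 1 later marker was lower.

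Of 21 tested genes of erythroblast and macrophage contact, 1 rose and 1 fell by diet in proerythroblasts, against 1.27% and 2.76% of all genes. Epb42, protein 4.2 of the red cell membrane skeleton, rose by 1.05 (adjusted p = 0.00652), and Spn, the sialomucin CD43, fell by 1.44 (adjusted p = 0.00352). With stage, 6 rose and 3 fell on the deficient diet, and 10 rose and 3 fell on the adequate diet. Of all genes tested, 56% and 54.2% changed there. With median centring 2 rose and 3 fell on the deficient diet, and 4 rose and 3 fell on the adequate diet. Leaving out both basophilic replicates 2, 5 rose and 3 fell by diet in proerythroblasts, and 9 rose and 3 fell with stage on the deficient diet. The tetraspanin gene Cd81 fell on the deficient (-0.81) and the adequate diet (-1.01), and Rhag, of the Rh complex, rose by 0.86 on the adequate diet. Of 15 macrophage markers, 0 passed for diet and 3 rose with stage on each diet, but 0 rose on the deficient diet without both basophilic replicates 2 or with median centring. The summed linear level of the macrophage markers was 1147 to 1705 in deficient and 1194 to 1824 in adequate basophilic erythroblasts. It was 1020 to 1894 in deficient and 861 to 2342 in adequate proerythroblasts, so the groups overlapped.

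Among 33 tested immunoglobulin-family and other adhesion receptors, Tspan33, a tetraspanin needed for normal erythropoiesis in mice, was the 1 gene to rise by diet in proerythroblasts (0.92, adjusted p = 0.00998). None fell. In the fit without the replicate 2 basophilic arrays, 2 rose and 2 fell by diet, and 11 rose and 2 fell with stage on the deficient diet. With all arrays, 7 rose and 5 fell with stage on the deficient diet, and 9 rose and 4 fell on the adequate diet. With median centring these were 2 and 5, and 5 and 6. With the deposited scaling 56% of all genes tested changed with stage on the deficient and 54.2% on the adequate diet. Tspan33 rose on the adequate diet by 1.21 and Cd82, another tetraspanin, by 0.81, a call lost with median centring (adjusted p = 0.0543). Among 18 partners of CD44 and selectin ligands, 0 passed for diet, 5 rose and 6 fell with stage on the deficient diet, and 6 rose and 5 fell on the adequate diet. The share of the 18 that changed with stage was near that of all genes. With median centring 1 rose and 8 fell on the deficient and 1 rose and 7 fell on the adequate diet, and with quantile normalization 2 and 2, and 1 and 3. Podxl, a sialomucin, fell on the deficient (-2.05) and the adequate diet (-2.31). With the replicate 2 arrays of basophilic erythroblasts left out, 2 rose and 1 fell by diet in proerythroblasts. Nf2, or merlin, which binds the tail of CD44, fell as well (-0.92 and -1.04).

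Of 18 tested genes of the extracellular matrix, 1 rose by diet in proerythroblasts, against 1.27% of all genes. It was Thbs1, thrombospondin 1 and a ligand of CD36 (0.87, adjusted p = 0.0122). That call was lost without deficient proerythroblast replicate 3 or adequate proerythroblast replicate 1 or 2, at adjusted p up to 0.0688. Fn1, the fibronectin bound by α5β1, differed by 0.87 there (adjusted p = 0.116). With stage, 14 of the 18 rose and 0 fell on each diet, Vwf by 0.63 on the deficient and 0.70 on the adequate diet and Lama5 by 0.60 and 0.52. On the deficient diet the calls of both genes were lost with only the arrays of the contrast (adjusted p = 0.0542 for Vwf and 0.0643 for Lama5), and that of Vwf also with median centring (0.065). The adequate-diet call of Lama5 was lost with quantile normalization (adjusted p = 0.0767) and without adequate proerythroblast replicate 1 (0.0519) or adequate basophilic replicate 2 (0.0657). Of the 18, 10 rose on the deficient and 4 on the adequate diet both with quantile normalization and with median centring. These genes too were dim, and the rise of dim genes and of background features given above moved with them. Of the 9 stroma and endothelium markers, 8 rose on the deficient and 7 on the adequate diet with stage, with the same limit, and 3 and 2 rose under either of those scalings. With the deposited scaling, none of the 10 markers of B cells passed in any comparison. Of 10 markers of T and NK cells 1, Ncr1, rose with stage on each diet, and both calls were lost with quantile normalization (adjusted p up to 0.32).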

How the data were processed

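Erythroblast RNA was measured on 12 Affymetrix arrays. The values the authors deposited are on a log2 scale and came from Affymetrix Expression Console, per the submitters' processing notes. Its version, background correction and normalization are not given in the sources used here, and the array medians differ. Samples were grouped by their titles. Of 72688 features, 186 were controls, 31266 named 1 gene, 1484 several and 39752 none. Symbols of 1797 features were updated through RefSeq tables. Each gene took its feature with the highest mean (441 genes had several). Genes read above 5.30 (the median value) on 3 or more arrays were tested, 20133 of 30710.

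A mean per group was fitted with limma 3.58.1 (lmFit, eBayes) in R 4.3.3, on all 12 arrays, with Benjamini-Hochberg adjustment over all genes tested. Python 3.11.15 prepared tables. The script was tested on simulated data. The interaction subtracts the proerythroblast diet effect from the basophilic one. Intervals are 95% intervals of limma. Background features are the 23 background control features of the array. Summed linear levels add 2 to the power of each value over all markers of a list on the arrays.

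Same-numbered arrays of the 2 diets deviated together in proerythroblasts (r = 0.46, 0.18 and 0.52) and in basophilic erythroblasts (r = 0.72, 0.78 and 0.54). Differently numbered proerythroblast arrays gave r of -0.40 to 0.08. Deviations from a group mean offset each other, so these r values are not independent. In basophilic erythroblasts deficient replicate 1 with adequate 3 gave 0.51, and deficient 3 with adequate 1 gave 0.60. There replicate 2 was set apart, but replicates 1 and 3 were not clearly told from each other. With that limit, the numbers were taken to pair samples within a stage. This rests on the data, as the labels do not say it. Across stages same-numbered arrays gave r of 0.25, 0.19 and 0.10 on the deficient diet and 0.21, -0.07 and -0.17 on the adequate diet. The numbers were not taken to pair samples across stages.

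All 9 members are described whatever they show. Of each other list the text names at most 4 tested genes per comparison, those with the smallest adjusted p, and cell type markers. The megakaryocyte genes Itgb3 and Pf4, and Fn1 as the ligand of α5β1, were named after their values were seen. For each member the 3 most alike genes are named. The members, all lists and the alternatives were chosen with earlier results of these data known. Alternatives were other filters, median centring, array weights, quantile normalization, replicate blocks, a trended and robust variance, the mean of a gene's features, only the arrays of the contrast, and leaving out arrays. Counts of the other lists under quantile normalization and median centring were added after seeing the data. Promoters are RefSeq's, build GRCm38.p6. The build behind the array's features is not given in the sources used here, so no feature positions are printed.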

Additional observations from a re-analysis of the deposited data

Results flagged for a closer look

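For 2 of the 9 adhesion genes the effect of the deficient diet differed between the stages by the interaction test of limma. For Itga5, the fibronectin receptor subunit, the diet difference was -0.07 in basophilic erythroblasts and -1.82 in proerythroblasts, so the stages differed by 1.76 on the log2 scale (adjusted p = 0.0158). For Cd248, endosialin, it was 0.06 in basophilic erythroblasts and -1.46 in proerythroblasts, a difference of 1.52 (adjusted p = 0.028). Both genes lay under the brightest background feature in every basophilic array, which limits how large a diet difference could be seen at that stage.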

How the results depend on the processing

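Of the 1008 values of the 9 genes under the alternatives, 907 kept their direction and their side of the threshold, 48 lost the call, 28 gained it and 25 changed sign. The cause of the changes was not tested. Of the 9 genes, the number called by diet in proerythroblasts was 4, against 2 with median centring, 6 with array weights and with the replicate block within each stage, 5 without both basophilic replicates 2 and 2 to 4 with 1 array left out. By diet in basophilic erythroblasts it was 0, against 1 with quantile normalization, 2 with array weights, 1 with the replicate block within each stage, 2 without both basophilic replicates 2 and 0 to 2 with 1 array left out (2 without deficient basophilic replicate 2). By stage it was 5 on the deficient diet, against 3 with only the arrays of the contrast, 7 without both basophilic replicates 2 and 4 to 6 in the other alternatives and with 1 array left out. On the adequate diet it was 7, against 5 with median centring and 6 to 8 otherwise. For the interaction it was 2, against 1 with quantile normalization, 3 with array weights, with the block within each stage and without both basophilic replicates 2, and 0 to 2 with 1 array left out, at 0 without deficient proerythroblast replicate 3, adequate proerythroblast replicate 1 or 2, deficient basophilic replicate 1 or adequate basophilic replicate 1. With the replicate number as a block over all arrays, 4, 0, 6, 7 and 2 of the 9 genes were called.

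Signs changed only where no call was made. The basophilic diet difference of Icam4 was 0.039 with quantile normalization, 0.15 with array weights and 0.085 without both basophilic replicates 2, and -0.38 to 0.38 with 1 array left out. That of Cd24a was 0.10, 0.11 and 0.10, and -0.068 to 0.057. That of Cd248 was -0.069 with array weights and -0.095 without both basophilic replicates 2, and -0.083 to 0.13 with 1 array left out. That of Itga5 was -0.19 to 0.04. The stage difference of Itga4 on the deficient diet was 0.095 with quantile normalization, 0.135 without both basophilic replicates 2 and -0.58 to 0.135 with 1 array left out. On the adequate diet it was -0.18 with median centring and -0.088 to 0.25. With 1 array left out, the proerythroblast diet difference of Itgb1 was -0.13 to 0.013, and the interactions of Itga4 and Itga2b were -0.63 to 0.085 and -0.0017 to 0.37.

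Over all genes, 810 were called by diet in proerythroblasts, against 8010 with array weights, 2234 with the block within each stage, 2416 with only the arrays of the contrast and 3286 without both basophilic replicates 2. In basophilic erythroblasts 4 became 155, 295, 0 and 420, and 56 with quantile normalization, 2 with median centring and 19 with the block over all arrays. The interaction count of 61 became 482 with array weights, 589 with the block within each stage, 700 without both basophilic replicates 2, 24 with quantile normalization and 38 without a filter. With 1 array left out, the proerythroblast diet count was 314 to 1806, the basophilic one 0 to 289 and that of the interaction 12 to 282, each highest without deficient basophilic replicate 2. The stage counts were then 4953 to 12419 and 5611 to 14341. Stage counts of 11275 and 10912 became 7221 and 6443 with quantile normalization, 6332 and 6675 with the stricter filter, and 2919 on the deficient diet with only the arrays of the contrast. By diet in proerythroblasts the split was 255 higher and 555 lower, against 182 and 697 with median centring and 272 and 378 with quantile normalization. Of 2608 values of the other genes that passed and could be named, 224 lost the call and none changed sign.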

Other observations

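A further feature of the array names Icam4 together with the microRNA gene Mir1900 and was used in no comparison. It read 7.41, 7.73 and 7.31 in deficient and 7.18, 7.63 and 7.38 in adequate basophilic erythroblasts, and 6.85, 6.82 and 6.77 in deficient and 6.76, 6.81 and 6.72 in adequate proerythroblasts. On this feature replicate 2 was the highest basophilic array on each diet, whereas on the feature of Icam4 alone it was the lowest.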
